A study of Caenorhabditis elegans with 4 samples.

Results

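The 10 genes described here belong with methylation of histone H3 lysine 9 (H3K9) in Caenorhabditis elegans. Their proteins read the mark, hold the marked chromatin at the nuclear periphery, or act as cofactors of the methyltransferase MET-2. lin-13 is included because its protein partners HPL-2. The genes were taken by name, as hpl-1, hpl-2, lin-61, lin-13, cec-3, cec-4, cec-5, cec-8, lin-65 and arle-14. All 10 were found by WormBase identifier among the 46748 genes of the count tables. Poly(A) RNA of whole larvae at the L3 stage was sequenced in 2 libraries of met-2 set-25 double mutants, called rWQS029 and rWQS045 after their column names, and 2 libraries of wild type (the N2 strain), called rWQS019 and rWQS042. Both genotypes were raised on NGM plates at 20°C, and the study's methods give the double mutant as the strain GW638, met-2(n4256) set-25(n5021), which is 1 strain. Total counts were 36581352 and 48636767 in the mutant libraries and 22849521 and 56879896 in the wild type libraries.

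Silent chromatin in many animals carries methylated H3K9, often over repeats and at the nuclear periphery. Proteins with a chromodomain or with MBT repeats bind the methylated lysine, and some of them recruit further repressors or tether the marked chromatin to the envelope. MET-2 and SET-25 are histone methyltransferases that place this mark, and the comparison asks how transcripts of the genes for readers, tethers and cofactors stand in larvae that lack both enzymes. It addresses transcript levels only and holds no measure of protein or of binding.

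The mutant libraries were less alike than the wild type libraries, and this bears on every value below. Of 15978 genes tested, 15.7% were more than 2-fold apart (log2 of TMM-scaled CPM plus 0.5) between rWQS045 and rWQS029, against 5.38% between rWQS042 and rWQS019. The summed level of 20 germline markers was 1185 CPM in rWQS029 and 2445 CPM in rWQS045, against 458 CPM in rWQS019 and 486 CPM in rWQS042, and all 20 markers were higher in both mutant libraries than in both wild type libraries. CPM stands for counts per 1000000 counts of a library, scaled by TMM factors. The 10 oocyte markers summed to 82.6 and 144 CPM in the mutant and to 33.7 and 37.2 CPM in wild type. The 12 sperm markers summed to between 0.806 and 1.96 CPM in each of the 4 libraries, with 2 of them at a count of 0 throughout. Of these sums, spe-9 alone held 1.14 and 0.583 CPM in the mutant and 1.09 and 0.420 CPM in wild type. Markers of the L4 and adult stages summed to 7.05 CPM in rWQS029 and 39.2 CPM in rWQS045, against 5.39 and 5.12 CPM in wild type. The 4 hypodermis markers summed to 1363 CPM in rWQS029 and 4975 CPM in rWQS045, against 2933 and 3273 CPM in wild type, so the mutant libraries lay on both sides of wild type. The same held for the 3 pharynx markers, at 2355 and 1005 CPM in the mutant and 1220 and 1531 CPM in wild type, and for the 4 intestine markers, at 4618 and 2975 CPM in the mutant and 3438 and 3432 CPM in wild type. The 4 muscle markers summed to 7774 and 9674 CPM in the mutant and 6659 and 8915 CPM in wild type, and the 5 neuronal markers summed to 281 and 237 CPM in the mutant and 407 and 337 CPM in wild type. In whole larvae, fewer cells of a type and less RNA per cell cannot be told apart, and the part of these differences in the results below was not tested.

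Transcripts of the mutated genes were counted in all libraries. met-2, which encodes the SETDB1-like methyltransferase, was at 31.8 and 35.3 CPM in the mutant libraries and 62.0 and 55.9 CPM in the wild type libraries (log2 fold change -0.81 ± 0.223 SE, edgeR adjusted p = 0.335). set-25, which encodes the second methyltransferase, was at 11.5 and 11.6 CPM in the mutant and 11.4 and 17.6 CPM in wild type. The met-2 values of the genotypes did not overlap, and those of set-25 did. Counts over a whole gene do not show which exons were read, so they check the genotype labels only weakly. 64 bases of the set-25 exons overlap unc-64 on the opposite strand, which the library kit does not separate.

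Across the 10 genes, all fitted log2 fold changes were above 0, and the 95% interval included 0 for 7 of them. The median log2 fold change of the 10 genes was 0.39, against 0.02 over all genes tested, of which 51.6% were above 0. edgeR's quasi-likelihood test, adjusted by Benjamini-Hochberg, called 0 of the 10 genes and 0% of all genes at an adjusted p under 0.05. limma voom also called 0 of the 10 and 0% of all genes. At an unadjusted p under 0.05 edgeR had 3 of the 10 genes as higher and 0 as lower, against 6.31% of all genes as higher and 3.96% as lower. DESeq2, the tool named in the study's methods, called 2 of the 10, cec-8 and lin-13, as higher in the mutant and 0 as lower, against 2.49% and 0.821% of the genes it tested. For 7 of the 10 genes both mutant libraries were above both wild type libraries, a pattern that 22.1% of all genes had, while 21.1% had the opposite pattern and 0 of the 10 did. Among the 7, cec-5 was nearly level between its lower mutant and higher wild type library, at 129.4 and 129.1 CPM. Without rWQS045, 8 of the 10 edgeR fold changes were above 0 and their median was 0.14, and without rWQS029 all 10 were above 0 with a median of 0.63.

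**Figure D1:**
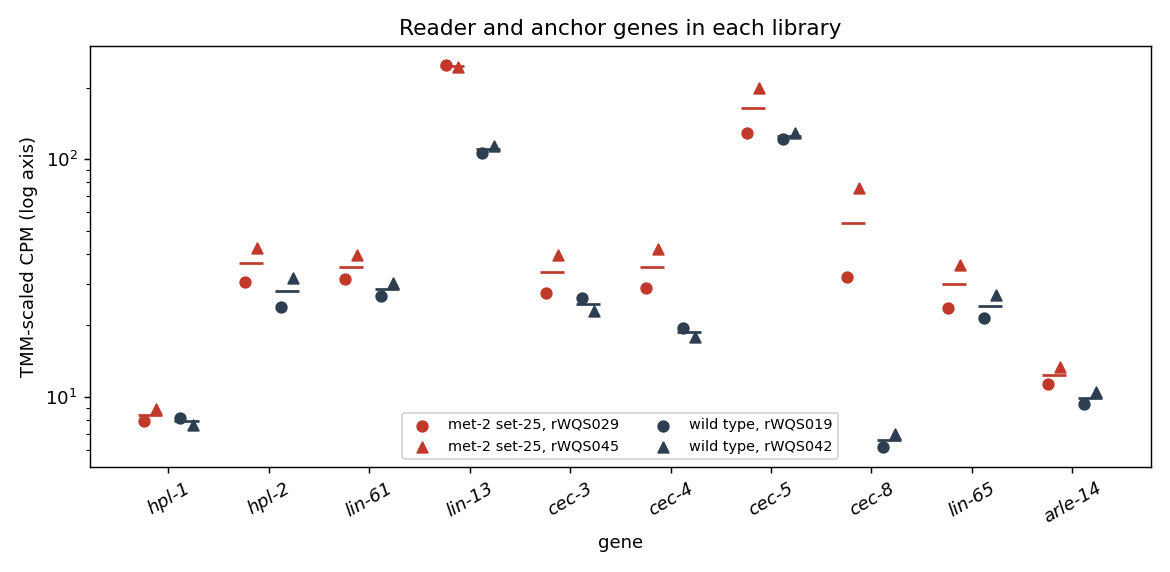
TMM-scaled CPM (log axis) of the 10 genes in each of the 4 libraries, with red symbols for met-2 set-25, dark symbols for wild type and short lines for the mean of each genotype. cec-8 and lin-13 are well apart between genotypes, the hpl-1 points lie together, and in 9 of the 10 genes the rWQS045 triangle stands above the rWQS029 circle.

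hpl-1 and hpl-2 encode the heterochromatin protein 1 homologues of the worm, each with a chromodomain that binds methylated H3K9 and a chromoshadow domain for partner proteins. hpl-1 (chromosome X, 13245390 to 13247044 in WBcel235) was at 7.89 and 8.88 CPM in the mutant libraries, against 8.18 and 7.60 CPM in wild type. The genotypes overlapped, and all 4 values lay close together. Its log2 fold change was 0.09, with a 95% interval from -0.66 to 0.83 and an edgeR adjusted p of 0.93, which is too wide to show that its level was the same.

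hpl-2 (chromosome III, 10752195 to 10755530), a repressor of germline genes in the soma, was at 30.4 and 42.5 CPM in the mutant libraries, against 23.9 and 31.6 CPM in wild type. The deeper wild type library lay above the lower mutant library, so the genotypes overlapped. The log2 fold change was 0.39, with a 95% interval from -0.38 to 1.16 and an edgeR adjusted p of 0.688. Per kilobase of exon, hpl-2 was above hpl-1 in every library, with ratios of 2.41 and 2.98 in the mutant and 1.82 and 2.59 in wild type, and these ratios overlapped between genotypes. The neighbouring gene enu-3.6, on the other strand and 264 bases away, was at 4.24 and 6.37 CPM in the mutant and 1.35 and 1.42 CPM in wild type, and DESeq2 called it as higher (adjusted p = 0.00509, edgeR adjusted p = 0.21).

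lin-61 and lin-13 belong to the class B synthetic multivulva genes, which repress vulval fate together with hpl-2. lin-61 (chromosome I, 7248827 to 7251282), whose MBT repeats bind H3K9 methylation, was at 31.2 and 39.4 CPM in the mutant and 26.6 and 30.03 CPM in wild type. The genotypes did not overlap, but the lower mutant library was close to the higher wild type library. Its log2 fold change was 0.32, with a 95% interval from -0.33 to 0.97 and an edgeR adjusted p of 0.7.

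lin-13 (chromosome III, 7700338 to 7709491), which encodes a zinc finger protein that partners HPL-2, was at 249 and 244 CPM in the mutant libraries, against 106 and 114 CPM in wild type. The 2 mutant libraries were at nearly the same level, a ratio of 0.981 of rWQS045 to rWQS029, and both were more than 2-fold above the wild type libraries. The mean was 246 ± 3.37 CPM in the mutant and 110 ± 5.204 CPM in wild type (SD, n = 2 libraries each), a fold of 2.24. The log2 fold change was 1.16 ± 0.199 (SE), with a 95% interval from 0.65 to 1.68. DESeq2 called it (adjusted p = 0.0131) and edgeR's quasi-likelihood test did not (adjusted p = 0.155). The fold change stayed between 1.099 and 1.24 on the log2 scale over the 20 settings run. The DESeq2 call was lost without rWQS019 and without rWQS042, where wild type is a single library. It was kept without rWQS029 and without rWQS045, where the mutant is a single library.

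A pseudogene on the opposite strand shares 44 bases with the lin-13 exons, 0.624% of their length, and had at most 10 counts in a library, against at least 2448 for lin-13. The nearest protein-coding gene to its right, C03B8.3, 2817 bases away and on the opposite strand, was at 3.02 and 2.67 CPM in the mutant and 0.522 and 0.298 CPM in wild type. DESeq2 called C03B8.3 as higher as well (adjusted p = 0.000297), and edgeR did not (adjusted p = 0.15). Of 17 tested genes that flank the 10, enu-3.6 and C03B8.3 were the 2 that DESeq2 called as higher, 0 were called as lower, and the median log2 fold change of the 17 was 0.27. Over all genes these were 2.49% called as higher, 0.821% called as lower and a median of 0.02.

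The 4 cec genes each encode a chromodomain protein, and their log2 fold changes ran between 0.39 and 3.03. cec-3 (chromosome II, 7855810 to 7857600) encodes a chromodomain protein that binds methylated H3K9. It was at 27.2 and 39.5 CPM in the mutant libraries, against 26.1 and 23.0 CPM in the wild type libraries. The lower mutant library exceeded the higher wild type library by little, and the log2 fold change was 0.44, with a 95% interval from -0.30 to 1.19 (edgeR adjusted p = 0.643).

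cec-4 (chromosome IV, 7575718 to 7577326) encodes the chromodomain protein of the nuclear envelope that anchors H3K9-methylated chromatin there in embryos. It was at 28.6 and 41.9 CPM in the mutant libraries, against 19.4 and 18.0 CPM in wild type. Both mutant libraries were above both wild type libraries, and the mutant libraries were further apart than the wild type ones. The log2 fold change was 0.92, with a 95% interval from 0.16 to 1.67, an unadjusted p of 0.0261 and an edgeR adjusted p of 0.4 (DESeq2 adjusted p = 0.289). Without rWQS029 the edgeR log2 fold change was 1.16, and without rWQS045 it was 0.61.

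cec-5 (chromosome IV, 7578506 to 7580112), which encodes another chromodomain reader of H3K9 methylation, lies 1179 bases from cec-4 on the opposite strand. It was at 129 and 199 CPM in the mutant and at 121 and 129 CPM in wild type. The lower mutant library and the higher wild type library were level, at 129.4 and 129.1 CPM, and rWQS045 stood above the other 3 libraries. The log2 fold change was 0.39, with a 95% interval from -0.33 to 1.11 (edgeR adjusted p = 0.67), and it was 0.05 without rWQS045. The gene F32E10.5 shares 141 bases with the cec-4 exons on the opposite strand, 12.6% of their length. F32E10.5 was at 9.003 and 11.3 CPM in the mutant and 11.2 and 8.25 CPM in wild type, with overlapping genotypes, and reads of the shared bases cannot be assigned by strand. The ratio of cec-4 to cec-5 per kilobase was 0.272 and 0.260 in the mutant and 0.198 and 0.171 in wild type, without overlap. How many other gene pairs share this pattern was not counted, so it is not a result particular to cec-4 and cec-5.

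cec-8 (chromosome III, 429338 to 431749), a chromodomain gene near the left end of its chromosome, had the largest fold change of the 10. It had 1262 counts in rWQS029 and 3374 in rWQS045, against 141 in rWQS019 and 399 in rWQS042. In CPM these were 32.004 and 75.6 in the mutant libraries and 6.13 and 6.99 in the wild type libraries. The mutant libraries were far above wild type, yet 2.36-fold apart from each other, while the wild type libraries were 1.14-fold apart. The mean was 53.8 ± 30.9 CPM in the mutant and 6.56 ± 0.606 CPM in wild type (SD, n = 2 libraries each), a fold of 8.20.

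The log2 fold change of cec-8 was 3.03 ± 0.49 (SE), with a 95% interval from 1.77 to 4.30. DESeq2 gave an adjusted p of 3.23e-06 and edgeR's quasi-likelihood test one of 0.144. Without rWQS045 the edgeR log2 fold change was 2.28, and without rWQS029 it was 3.52. Over the 20 settings run it stayed between 2.27 and 3.55. The flanking genes stim-1, 10588 bases to the left, and affl-2, 3141 bases to the right, had log2 fold changes of 0.15 and 0.14, with edgeR adjusted p of 0.851 and 0.861. No annotated gene overlaps cec-8.

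lin-65 and arle-14 encode cofactors that bind MET-2 and act with it in H3K9 methylation. lin-65 (chromosome I, 1755329 to 1766400) was at 23.7 and 35.96 CPM in the mutant and 21.4 and 26.7 CPM in wild type, with overlapping genotypes. Its log2 fold change was 0.31, with a 95% interval from -0.50 to 1.12 (edgeR adjusted p = 0.763), and -0.02 without rWQS045. arle-14 (chromosome III, 5692906 to 5693938) was at 11.3 and 13.3 CPM in the mutant and 9.35 and 10.5 CPM in wild type. Its genotypes did not overlap, and its log2 fold change was also 0.31, with a 95% interval from -0.42 to 1.03 (edgeR adjusted p = 0.736).

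Both cofactor genes stood higher relative to met-2 in the mutant. Per kilobase of exon, the ratio of lin-65 to met-2 was 1.18 and 1.61 in the mutant libraries and 0.547 and 0.756 in the wild type libraries. The ratio of arle-14 to met-2 was 1.69 and 1.79 in the mutant and 0.716 and 0.894 in wild type. Neither ratio overlapped between genotypes, although lin-65 by itself did. The denominator of both, met-2, was at a fold of 0.569 in the mutant, which raises every ratio to it there. How many of all genes share this pattern was not counted, so it is not a result particular to the cofactors. With 2 libraries against 2, an exact permutation test of such a ratio cannot give a two-sided p below 0.333, so none was run.

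**Figure D2:**
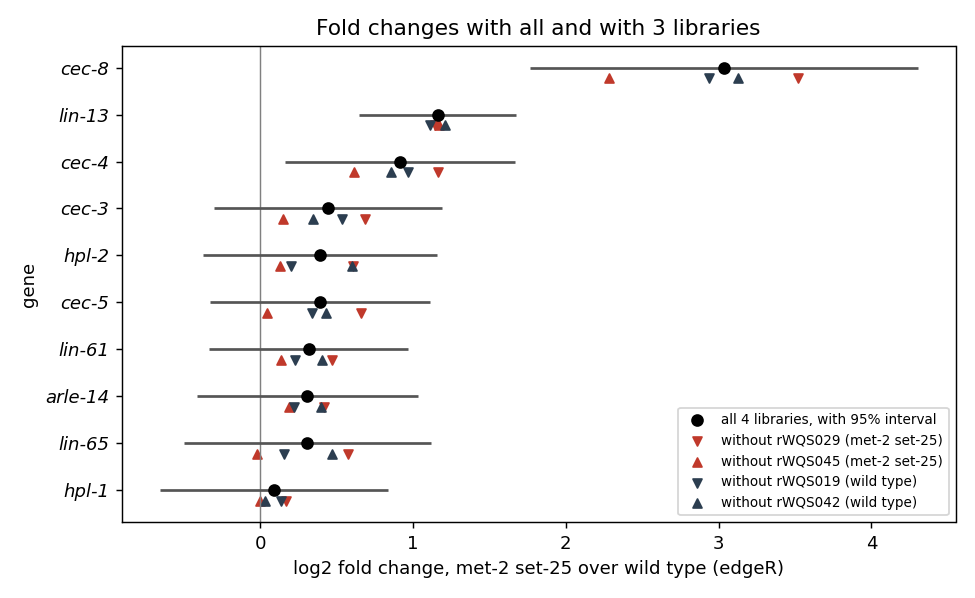
Log2 fold changes of the 10 genes, met-2 set-25 over wild type, from edgeR with all 4 libraries (black, with 95% intervals) and with each library left out (triangles). The intervals of cec-8, lin-13 and cec-4 lie above 0 and the other 7 include it, and the triangles of lin-13 lie close together while those of cec-8 run from 2.28 to 3.52.

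Levels of different genes were compared only per kilobase of exon, with exon lengths from the WBcel235 annotation. In the mutant, cec-5 was highest at 119.2 ± 35.5 CPM per kb, followed by lin-13 (34.9 ± 0.478), cec-4 (31.5 ± 8.40), hpl-2 (28.3 ± 6.61), cec-8 (24.4 ± 13.98) and cec-3 (23.5 ± 6.13). lin-61 (17.8 ± 2.92), arle-14 (14.2 ± 1.61), lin-65 (11.4 ± 3.31) and hpl-1 (10.5 ± 0.874) were lower. In wild type cec-5 was also highest, at 90.9 ± 4.18 CPM per kb, and was followed by hpl-2 (21.6 ± 4.23), cec-3 (17.3 ± 1.59), cec-4 (16.7 ± 0.939), lin-13 (15.6 ± 0.738), lin-61 (14.2 ± 1.21) and arle-14 (11.4 ± 0.956). hpl-1 (9.84 ± 0.506), lin-65 (9.21 ± 1.43) and cec-8 (2.97 ± 0.275) were the lowest (SD, n = 2 libraries each).

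The order changed mainly through cec-8 and lin-13. In the mutant each gene overlapped the next in the order, except at the steps below cec-5 and below lin-61. In wild type the steps below cec-5, hpl-2, lin-61, arle-14 and lin-65 were without overlap, and cec-3, cec-4, lin-13 and hpl-1 each overlapped the next gene. Among all genes tested, the level of cec-8 per kilobase stood at percentile 70.8 in the mutant and 27.1 in wild type, that of lin-13 at 78.2 in the mutant and 60.7 in wild type, and that of hpl-1 at 49.5 in the mutant and 49.3 in wild type.

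**Figure D3:**
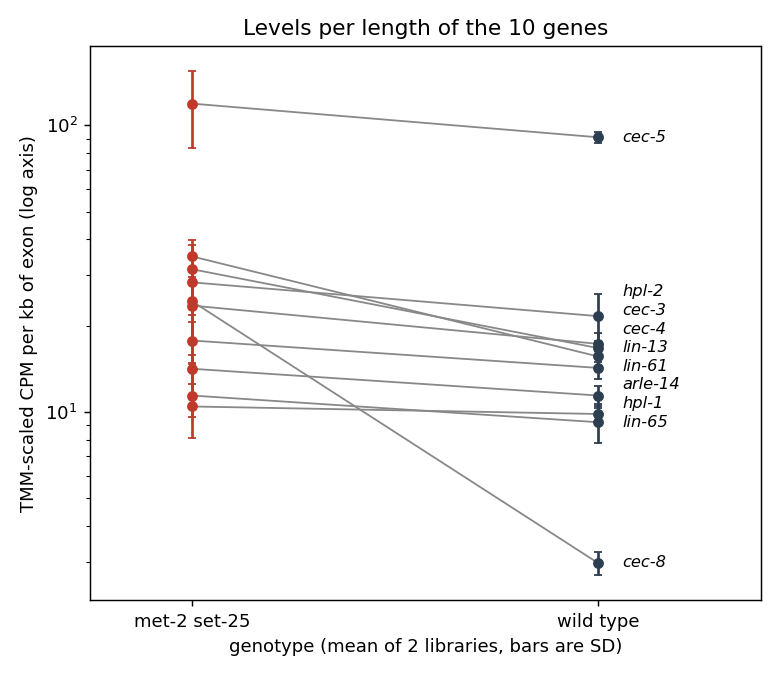
Levels of the 10 genes in TMM-scaled CPM per kilobase of exon (log axis), with met-2 set-25 on the left and wild type on the right, as means of 2 libraries with SD bars and a line joining the means of a gene. cec-5 is the highest gene in both genotypes, and the line of cec-8 is the steepest, joining 24.4 in the mutant to 2.97 in wild type.

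The spread between the mutant libraries had a direction. 9 of the 10 genes were higher in rWQS045 than in rWQS029, with lin-13 the exception, and the median log2 difference of the 10 was 0.50, against 0.01 over all genes tested and 1.08 for the 20 germline markers. Between the wild type libraries the median log2 difference of the 10, rWQS042 minus rWQS019, was 0.13, and that of the germline markers was 0.06. Relative to the summed germline markers of the same library, cec-8 was at 27.0 and 30.9 CPM per 1000 CPM of markers in the mutant and 13.4 and 14.4 in wild type. The other 9 genes were lower on this scale in both mutant libraries than in both wild type libraries, a pattern that 89% of all genes tested had, while 1.46% had the opposite pattern of cec-8. Among the 9, lin-13 was at 210 and 99.8 in the mutant against 233 and 234 in wild type, and cec-4 was at 24.1 and 17.1 in the mutant against 42.5 and 36.9 in wild type. The markers themselves were higher in the mutant, which lowers every value on this scale there. The most abundant markers in the sum were glh-1 and pgl-1, with mutant over wild type folds of 4.01 and 3.33. Among the markers, him-3 (14.7) and syp-1 (9.41) had larger folds than the 8.20 of cec-8, and the others had smaller ones. The place of cec-8 on this scale thus depends on which markers weigh most.

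**Figure D4:**
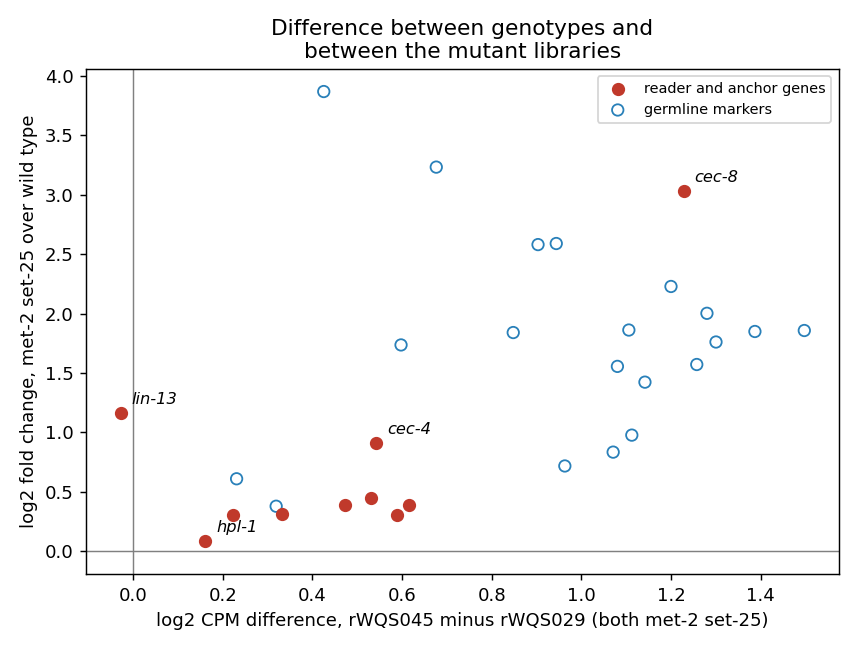
The log2 fold change of met-2 set-25 over wild type (vertical axis) against the log2 CPM difference between the mutant libraries, rWQS045 minus rWQS029 (horizontal axis), for the 10 genes (filled red) and the 20 germline markers (open blue). lin-13 lies at -0.03 on the horizontal axis with a log2 fold change of 1.16, cec-8 lies at 1.23 with 3.03, and the other 8 genes lie between 0.16 and 0.62 with log2 fold changes between 0.09 and 0.92.

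Of the genes tested, 3 with a mean of at least 5 CPM had a pattern over the 4 libraries closest to that of cec-8, by the root mean square difference of centred log2 CPM. They were prg-1 (0.069), which encodes the Piwi Argonaute of the germline, Y111B2A.1 (0.118) and Y54G11A.4 (0.139). prg-1 was at 304 and 627 CPM in the mutant libraries and 57.5 and 62.8 CPM in the wild type libraries. The comparison had 10377 candidate genes and 4 libraries, and it describes these profiles only.

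Genes around the readers in the same processes were read from 6 lists, which held 56 genes with counts, 55 of them tested. edgeR called 0 of the 55 at an adjusted p under 0.05, as it did over all genes, and at an unadjusted p under 0.05 it had 6 as higher and 1, met-2, as lower, against 6.31% and 3.96% of all genes. DESeq2 called 4 as higher and 0 as lower, against 2.49% and 0.821% of the genes it tested. The median log2 fold change of the 55 was 0.37, with 42 above 0, against 0.02 and 51.6% over all genes tested.

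The 8 nuclear RNAi genes, whose products silence chromatin under the guidance of small RNAs, held 3 of these DESeq2 calls, with a median log2 fold change of 0.70. hrde-1, the germline nuclear Argonaute gene, was at 315 and 547 CPM in the mutant and 49.6 and 64.4 CPM in wild type (log2 fold change 2.92, DESeq2 adjusted p = 3.29e-08, edgeR adjusted p = 0.0936). morc-1, which encodes a GHKL ATPase that compacts chromatin, was at 82.8 and 114 CPM in the mutant and 32.6 and 37.0 CPM in wild type (DESeq2 adjusted p = 0.00453). nrde-2 was at 300.4 and 327 CPM in the mutant and 114 and 144 CPM in wild type (DESeq2 adjusted p = 0.0123). nrde-3, the somatic nuclear Argonaute gene of the same list, lay lower in both mutant libraries, at 24.02 and 29.5 CPM, than in wild type, at 33.8 and 34.2 CPM (edgeR adjusted p = 0.663), and was named after its values were seen.

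Among 12 other chromodomain and MBT genes, DESeq2 called uad-2, which encodes a chromodomain protein that binds piRNA gene clusters. It was at 46.8 and 66.7 CPM in the mutant and 22.01 and 19.8 CPM in wild type (log2 fold change 1.44, DESeq2 adjusted p = 0.00982, edgeR adjusted p = 0.193). The median of this list was 0.41, with 9 of 12 above 0. The 13 genes of the lamina and envelope had a median of 0.37 and the 13 other synMuv B and DREAM genes one of 0.34, with 0 called by either tool. The 6 methyltransferase and related SET genes had 3 fold changes above 0 and 3 below, and the 5 tested histone demethylase genes had a median of 0.07, also with 0 called by either tool.

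All 10 genes passed the filter on low counts. By position, 6 of them lie in the centre of an autosome (lin-61, lin-13, cec-3, cec-4, cec-5 and arle-14), hpl-1 lies on X, and hpl-2, cec-8 and lin-65 lie on autosome arms. The log2 fold changes on the arms were 0.39, 3.03 and 0.31, so the value of cec-8 was not shared by the other 2 genes of the arms.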

How the data were processed

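The authors deposited raw counts, whole numbers of reads per gene, in 1 table for each genotype with 2 libraries each. TruSeq libraries (a kit that does not mark strand) were aligned with STAR to ce10 with the WS235 annotation. The counter is HTSeq in the study's methods and featureCounts in the submitters' processing notes. Versions are not given in the sources used here. Columns carry the genotype but no replicate number. No source says that the libraries came from separate cultures, and the spread behind each p-value is that between libraries, possibly technical. Genes were matched by WormBase identifier to the Ensembl annotation of WBcel235 (46449 of 46748), which gives the positions and exon lengths.

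All genes were fitted together with edgeR 4.0.16 (R 4.3.3), by the quasi-likelihood test with genotype as the term, filterByExpr, TMM factors and Benjamini-Hochberg adjustment at 0.05. The SE is the fitted coefficient over the root of its F statistic, and intervals are 95%. Alternatives were DESeq2 1.42.0, limma voom (limma 3.58.1), edgeR's likelihood ratio and legacy tests, other scalings and filters, a threshold of 0.01, and each library left out. Named genes were the 10, met-2 and set-25, the DESeq2 calls of the lists (at most 3 a list), and the 3 most like the gene with the smallest edgeR p. Flanking and overlapping genes were taken by position, outside this rule. The genes and lists were chosen with earlier results of these data known. 3 listed names were unmatched, and arms are the outer 25% at each end of an autosome.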

Additional observations from a re-analysis of the deposited data

How the results depend on the processing

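The 10 genes had 0 edgeR calls under RLE factors, upper-quartile factors, library sizes alone and the legacy test. They also had 0 with no filter, a minimum mean of 5 CPM, a threshold of 0.01 and limma voom. Each of these settings called 0% of all genes as well, so these counts show nothing particular to the 10. DESeq2 and edgeR's likelihood ratio test each called 2 of them and 4 genes of the pathway lists as higher. Over all genes, DESeq2 called 2.49% as higher and 0.821% as lower, and the likelihood ratio test 2.7% and 0.77%. With each library left out, over edgeR and DESeq2, the counts of higher calls ran between 0 and 3 for the 10 genes and between 0 and 8 for the pathway genes, with 0 lower calls throughout. The highest counts came from DESeq2 without rWQS029, where 5.31% of all genes were called as higher and 4.14% as lower, and without rWQS045 these shares were 2.72% and 3.34%. Fold changes kept their direction in all settings for 8 of the 10 genes. Without rWQS045, hpl-1 was at -0.00064 in edgeR and -0.0071 in DESeq2, and lin-65 at -0.024 and -0.032. With each library left out, hpl-1 ran up to 0.20 and lin-65 up to 0.60, and set-25 ran between -0.61 and 0.05, with 0.014 (edgeR) and 0.051 (DESeq2) without rWQS042. The causes of these changes were not tested. Leaving out all-zero genes in place of any filter was added after seeing the data and changed no call. No paired analysis was possible because the columns carry no replicate number. With 1 library left in a genotype, its spread is assumed to be that of the other. The share of all genes called differed between these fits with the library left out and the tool. Their counts of calls, including the 0 lower calls, therefore show nothing particular to the 10 genes or the pathway genes.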
